A study of Bos taurus with 12 samples.

Results

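AURKA, CDK1, CCNB1, CCNA2, BUB3, MAD2L1 and CDC20 encode 2 mitotic kinases, 2 cyclins and 3 proteins of the spindle checkpoint and its target. They were taken as every probe set of the bovine array whose annotation names exactly 1 of these genes. That gave 9 of the 24016 probe sets tested, for 7 of the 9155 genes named. AURKA and BUB3 have a pair of probe sets each, and each gene is represented by the probe set with the highest mean over all arrays.

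Cyclins are made and destroyed in every cell cycle: cyclin A2 and cyclin B1 bind the kinase CDK1, and the cyclin B1 complex drives entry into mitosis. Aurora kinase A matures the spindle poles and helps to build the spindle. At the kinetochores, MAD2L1 and BUB3 join the checkpoint complex that holds back CDC20, the activator of the anaphase-promoting complex, until every chromosome is attached. In early embryos the first cleavages run on RNA and protein stored in the oocyte, and cattle embryos start their own main transcription at about the 8-16-cell stage.

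The embryos were Japanese Black cattle embryos made by in vitro maturation, fertilization and culture. The 4 groups are expanded blastocysts from prepubertal oocytes, expanded blastocysts from adult oocytes, 8-16-cell embryos from prepubertal oocytes and 8-16-cell embryos from adult oocytes. Prepubertal donors were heifers aged 9 to 12 months whose ovaries were collected on farms, and adult donors were cows whose ovaries came from an abattoir, so donor age and ovary source cannot be told apart. Blastocysts were taken before hatching on day 7 in pools of 10. The 8-16-cell embryos were taken on day 3 in pools of 50, when 70 to 72 h had passed since insemination, so stage and pool size cannot be told apart either. Each group had 3 pools with 1 array each (n = 3 throughout). Pools are replicate samples in the labels, but no source used here says whether they shared animals, a bull or a culture day. The p-values thus speak only for these pools, whose spread may be technical in part. For each gene, the spread behind a p-value comes mainly from other probe sets of like level (8 residual and 195.66 prior degrees of freedom). The arrays were hybridized with amplified, labelled cDNA, and all values below are the deposited MAS5 signals, scaled on each array to the same trimmed mean, or their log2(signal + 16). A lower signal can come from fewer cells of a type or from less RNA per cell. With every array scaled to the same mean, it can also come from a rise of other RNA. These cannot be told apart in pooled embryos, and no fold below is an amount per cell or per embryo.

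The prepubertal 8-16-cell replicate 3 stood apart from the other arrays. Its background, set for every array as the brightest of 27 bacterial control probe sets, was 1664, against 122 to 424 on the other 11 arrays. It had 1255 probe sets above background where the others had 4297 to 8500, and its 100 brightest probe sets held 49.3% of the signal, against 23.3% to 32.7% elsewhere. Stage labels fitted the markers: the summed signal of 5 trophectoderm markers was 45886 to 100960 in prepubertal blastocysts and 35745 to 52018 in adult blastocysts, against 318 to 951 in prepubertal and 319 to 529 in adult 8-16-cell embryos. The sum of 6 oocyte and early cleavage markers ran the other way, with 227 to 1703 in prepubertal blastocysts and 602 to 722 in adult blastocysts, against 50794 to 264810 in prepubertal and 31031 to 55603 in adult 8-16-cell embryos. Of the 6, NLRP5 and ZP3 did not share this: each was at background on all 8-16-cell arrays and above it on 1 blastocyst array. Of 10 markers of cumulus and granulosa cells, which surround the oocyte, 5 were at background on all arrays (FSHR, LHCGR, CYP11A1, AMH and PTX3). STAR averaged 6.1 and 8.7 on the log2 scale in prepubertal and adult blastocysts, against 11.5 and 10.4 in prepubertal and adult 8-16-cell embryos. HAS2 ran the other way, with 9.9 and 10.8 in blastocysts against 7.0 and 7.8, in the same order. CYP19A1, TNFAIP6 and INHBA were above background on at most 1 array in any group. The summed signal of the 10 was 1538 to 2011 in prepubertal blastocysts, 1667 to 3974 in adult blastocysts, 1543 to 15110 in prepubertal 8-16-cell embryos and 1362 to 4320 in adult 8-16-cell embryos, and the part of such cells in the results below was not tested.

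Between stages, 4 of the 7 genes were lower in blastocysts than in 8-16-cell embryos when both oocyte origins were averaged: AURKA by 38.5-fold, CCNB1 by 7.59-fold, CCNA2 by 7.08-fold and BUB3 by 4.74-fold. None was higher. Over all probe sets, 2.51% were called lower in this comparison. The median log2 difference of the 7 genes was -2.25, against -0.17 over all probe sets. The 7 genes were chosen with earlier results of these data known, so their count and median are not independent of that choice. Much of the RNA that is bright at the 8-16-cell stage moved the same way: among the 805 probe sets above background on all 6 arrays of 8-16-cell embryos, 5 of which represent these genes, the median was -1.45 and 31.1% were called lower. With the array that stood apart left out of that choice, 2010 probe sets qualified, 6 of which represent these genes, their median was -0.995 and 20.5% were called lower. Both sets were picked by their 8-16-cell signal, which by itself favours a fall. The hybridization control probe sets read 142277 to 393972 in prepubertal blastocysts and 207412 to 351181 in adult blastocysts, against 395437 to 1191322 in prepubertal and 130211 to 292452 in adult 8-16-cell embryos. With arrays scaled to these controls, a setting added after seeing the data, only AURKA was called for both origins averaged.

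Within prepubertal embryos, 1 of the 7 genes was called, AURKA, which was lower in blastocysts (0.912% of all probe sets were called lower), and the median difference was -1.76 against -0.37 over all probe sets. Within adult embryos, 2 of the 7 were called, AURKA and BUB3, both lower (0.87% of all probe sets), and the median was -2.87 against 0.08. In signals alone, 4 of the 7 genes had all 3 prepubertal blastocyst arrays below all 3 prepubertal 8-16-cell arrays (9.24% of all probe sets did), and 6 of the 7 had all 3 adult blastocyst arrays below all 3 adult 8-16-cell arrays (7.62% did). Over both origins, 4 genes had all 6 blastocyst arrays below all 6 arrays of 8-16-cell embryos, against 1.27% of all probe sets: AURKA, CCNB1, CCNA2 and MAD2L1. Such falls were more common among the 805 bright probe sets, picked by their 8-16-cell signal. Their median was -1.66 in prepubertal and -1.20 in adult embryos, and 16.9% and 12.2% were called lower. Of the 805, 44.1% had blastocyst arrays wholly below in prepubertal embryos, 38.1% in adult embryos and 23.1% over both origins.

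**Figure D1:**
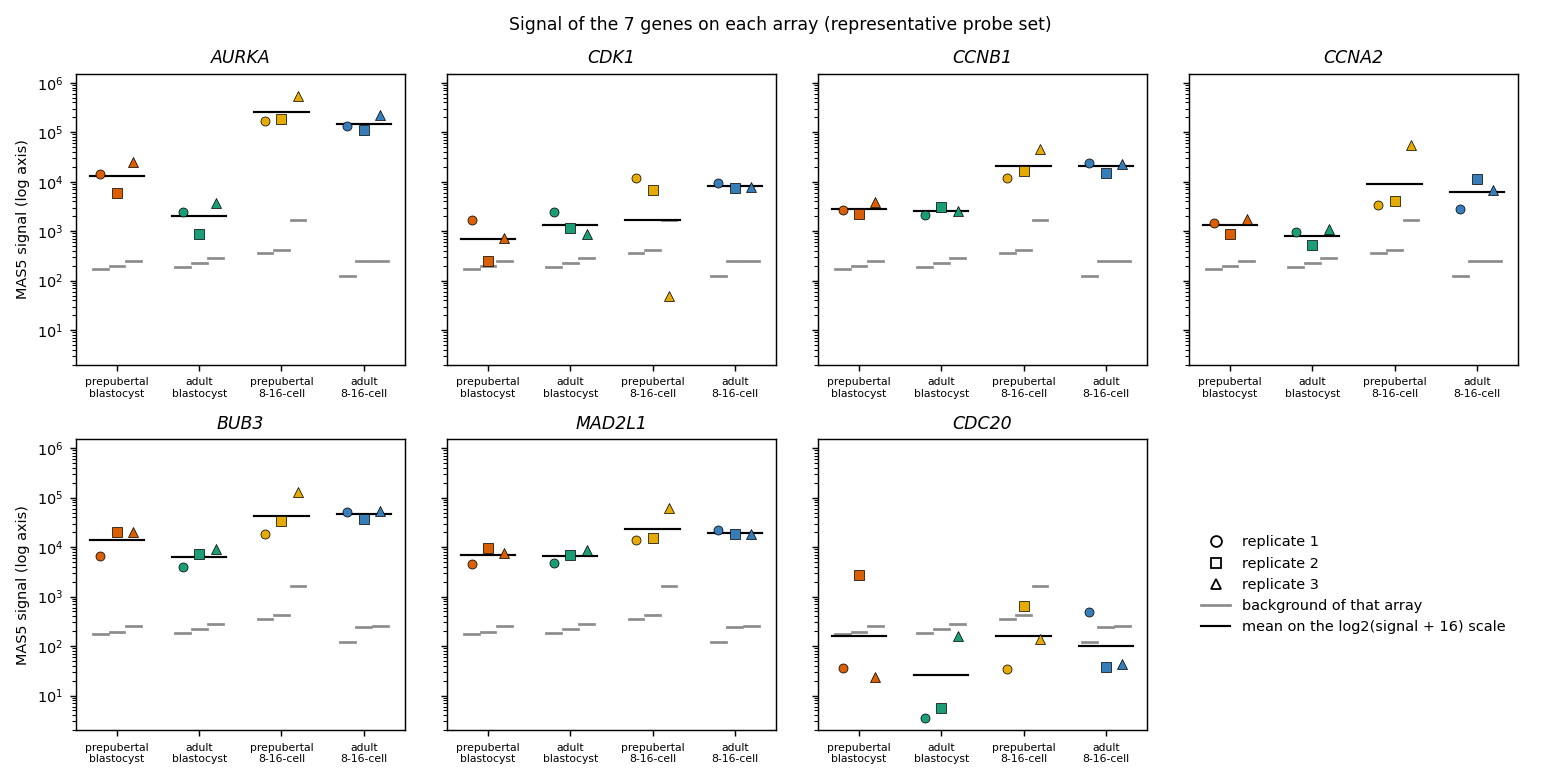
MAS5 signal (log axis) of the representative probe set of each of the 7 genes on all 12 arrays, by group. Each point is 1 pool, the bar is the group mean on the log2(signal + 16) scale, and the grey dash at each point is that array's background. AURKA, CCNB1, CCNA2 and MAD2L1 sit lower in every blastocyst pool than in any 8-16-cell pool. CDK1 has 1 point below background, at 49.1 in prepubertal 8-16-cell embryos, and CDC20 is below background on 9 of the 12 arrays.

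Of the kinases, AURKA was the gene with the widest stage difference of the 7. Its signal was 14216, 6037 and 24597 in prepubertal blastocysts, against 171736, 187052 and 531648 in prepubertal 8-16-cell embryos. In adult embryos it was 2451, 876 and 3679 in blastocysts, against 134793, 111308 and 218578 in 8-16-cell embryos. Stages did not overlap in either origin. The log2 difference was -4.33 (SE 0.71) in prepubertal embryos, with a 95% interval of -5.73 to -2.92 and an adjusted p of 6.01e-06 from limma. In adult embryos it was -6.21 (SE 0.71), with an interval of -7.61 to -4.81 and an adjusted p of 2.22e-11. AURKA passed the threshold in all 26 settings for each origin. The 531648 came from the array that stood apart, without which the prepubertal difference was -3.80 (SE 0.66).

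The second AURKA probe set gave the same direction between stages at lower signals. It read 4738, 8.89 and 776 in prepubertal blastocysts, against 20507, 40002 and 184733 in prepubertal 8-16-cell embryos, and the 8.89 was below background. It read 1902, 5366 and 5623 in adult blastocysts, against 29923, 24537 and 35076 in adult 8-16-cell embryos. Its arrays did not overlap between stages in either origin. Its log2 difference was -6.88 (SE 1.08, limma adjusted p 2.37e-06) in prepubertal embryos and -2.93 (SE 1.08, adjusted p 0.159) in adult embryos, so the order of the origins by size of the fall was opposite to that of the brighter probe set.

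**Figure D2:**
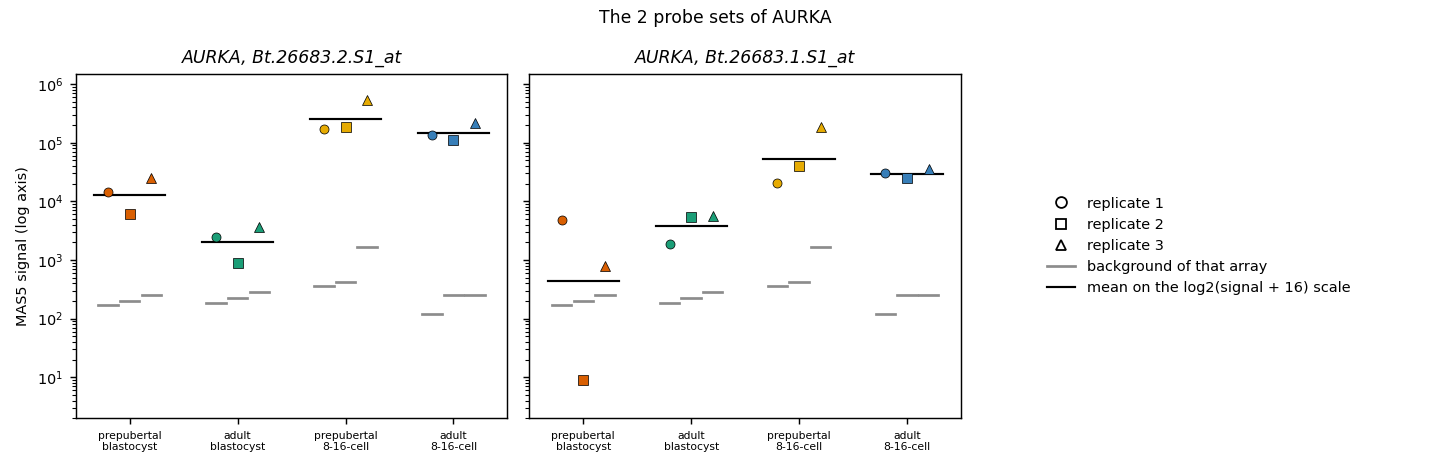
MAS5 signal (log axis) of both AURKA probe sets on all 12 arrays, by group. Each point is 1 pool, and the grey dash at each point is that array's background. Both are lower in every blastocyst pool than in the 8-16-cell pools of the same origin, while in blastocysts the prepubertal pools are the higher ones for the brighter probe set (6037 to 24597 against 876 to 3679) and not for the dimmer one.

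CDK1, the kinase that both cyclins activate, had signals of 1696, 253 and 737 in prepubertal blastocysts, against 11676, 6718 and 49.1 in prepubertal 8-16-cell embryos. The 49.1 came from the array that stood apart and lay under its background of 1664. In adult embryos CDK1 had 2477, 1154 and 881 in blastocysts, against 9536, 7309 and 7876 in 8-16-cell embryos, without overlap. The averaged log2 difference of -1.93 (SE 0.96, limma adjusted p 0.282) did not pass. With that single array left out of the fit, the averaged difference was -3.12 (SE 0.83, adjusted p 0.00727), or 8.67-fold lower in blastocysts, and within prepubertal embryos it was -3.66 (SE 1.24, adjusted p 0.105). CDK1 thus gained a call when that array was left out. It also gained one with all arrays kept and signals raised to the highest background (-1.84, limma adjusted p 0.02).

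Cyclin B1 (CCNB1) lay within narrow ranges in blastocysts: 2656, 2206 and 3918 in prepubertal and 2148, 3094 and 2572 in adult blastocysts. The 8-16-cell embryos had 12057, 16643 and 46011 in the prepubertal group and 24253, 14890 and 23259 in the adult group. Every blastocyst pool was below every 8-16-cell pool. The averaged log2 difference was -2.92 (SE 0.72, 95% interval -4.35 to -1.50, limma adjusted p 0.00294). It was -2.88 (SE 1.02) in prepubertal and -2.97 (SE 1.02) in adult embryos, which did not pass singly with limma adjusted p of 0.122 and 0.109. Without the array that stood apart, which gave the 46011, the adult difference passed at an adjusted p of 0.0359. The prepubertal difference was then -2.31 (SE 0.99, adjusted p 0.262).

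Cyclin A2 (CCNA2) had 1468, 878 and 1805 in prepubertal blastocysts and 952, 523 and 1097 in adult blastocysts, against 3384, 4039 and 56418 in prepubertal and 2832, 11502 and 6919 in adult 8-16-cell embryos. Stages did not overlap, but the 8-16-cell pools were widely spread, with an SD of 2.27 on the log2 scale in the prepubertal group, where the 56418 was the array that stood apart. The averaged log2 difference was -2.82 (SE 0.89, 95% interval -4.57 to -1.07, limma adjusted p 0.0314). Without that array it was -2.17, with an adjusted p of 0.129 that did not pass. The call also ended without adult 8-16-cell replicate 2 or 3, adult blastocyst replicate 2, or prepubertal blastocyst replicate 1 or 2, with adjusted p between 0.0611 and 0.0955, under quantile normalization (0.0514) and with signals raised to the highest background (0.0668).

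Of the checkpoint genes, BUB3 had 6569, 20416 and 19895 in prepubertal blastocysts, against 18328, 33056 and 129092 in prepubertal 8-16-cell embryos, and these groups overlapped. In adult embryos it had 3938, 7094 and 9007 in blastocysts, against 50586, 37176 and 52564 in 8-16-cell embryos, without overlap. The averaged log2 difference was -2.25 (SE 0.57, 95% interval -3.37 to -1.13, limma adjusted p 0.00379). The adult difference was -2.87 (SE 0.80, adjusted p 0.0285), and leaving out any 1 of the 6 adult arrays took its adjusted p to between 0.0545 and 0.163. The prepubertal difference was -1.62 (SE 0.80, adjusted p 0.344). Without the array that stood apart, which gave the 129092, it was -0.83 (SE 0.73, adjusted p 0.708). The averaged call of BUB3 ended without a trend in eBayes (adjusted p 0.0988) and with the mean of its probe sets (0.333). The second BUB3 probe set was above background on 2 of the 12 arrays and gave no call.

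MAD2L1 had 4528, 9636 and 7705 in prepubertal blastocysts and 4868, 7024 and 8666 in adult blastocysts, against 13770, 15248 and 62144 in prepubertal and 21854, 18252 and 18664 in adult 8-16-cell embryos. All 6 blastocyst pools were below all 6 pools of 8-16-cell embryos. The averaged log2 difference of -1.65 (SE 0.65, 95% interval -2.93 to -0.38) was not called at a limma adjusted p of 0.122. It was called in 3 of the 25 settings: with dim probe sets filtered out (adjusted p 0.0452), with signals raised to the highest background (0.0255) and, in a setting added after seeing the data, with signals raised to the highest background of the other 11 arrays and the array that stood apart left out (0.0282). The SE of the fit comes mainly from other probe sets of like level, and the SD of MAD2L1 itself was 0.56 and 0.42 in prepubertal and adult blastocysts and 1.21 and 0.14 in prepubertal and adult 8-16-cell embryos. The SD of 1.21 includes the 62144 of the array that stood apart. Without that array the difference was -1.30 (SE 0.57) for both origins averaged and -1.06 (SE 0.85) in prepubertal embryos.

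CDC20 was above background on 3 of the 12 arrays only: prepubertal blastocyst replicate 2 (2673), prepubertal 8-16-cell replicate 2 (644) and adult 8-16-cell replicate 1 (487). Its other signals were 36.7 and 24.2 in prepubertal blastocysts, 3.56, 5.50 and 160 in adult blastocysts, 33.9 and 140 in prepubertal 8-16-cell embryos and 37.0 and 42.6 in adult 8-16-cell embryos. Groups overlapped in every comparison of stages or origins, and this probe set gives no measurable level of CDC20 for most pools.

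**Figure D3:**
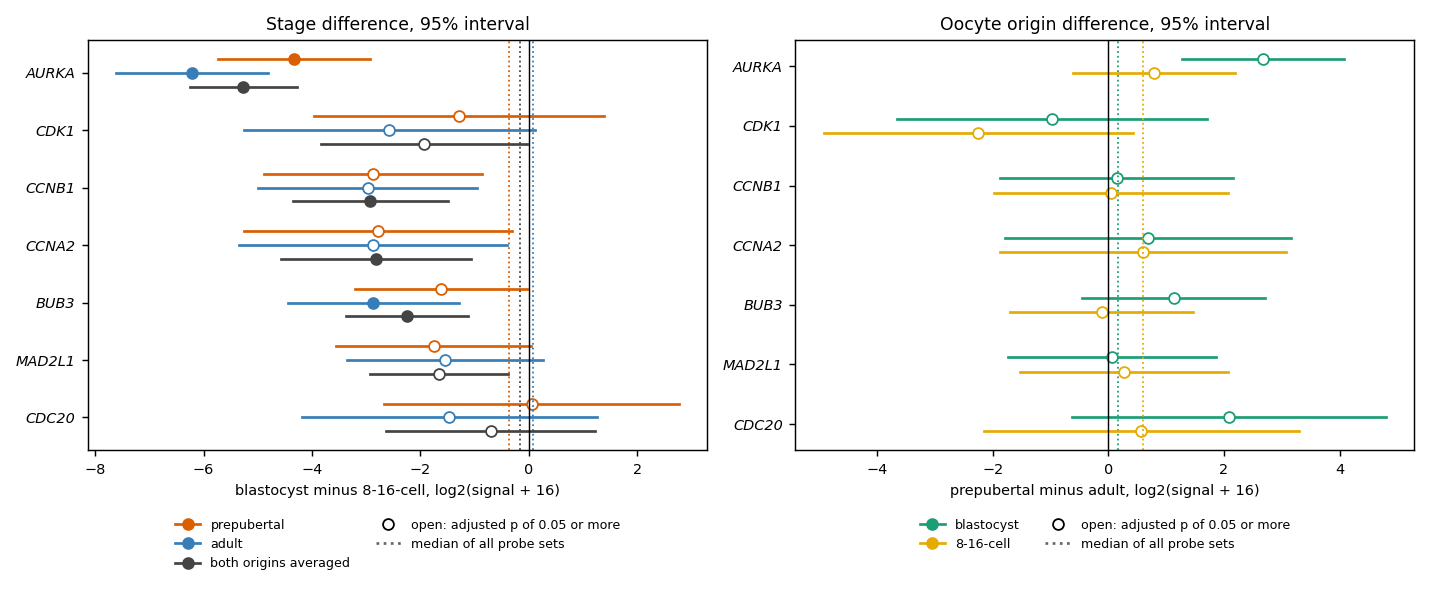
Log2 difference of each of the 7 genes for blastocyst minus 8-16-cell embryos within each origin and for prepubertal minus adult within each stage, with 95% intervals from the fit; filled points pass an adjusted p of 0.05. The stage intervals of AURKA lie farthest from 0 (-5.73 to -2.92 in prepubertal and -7.61 to -4.81 in adult embryos), and no origin difference passes.

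The second question of the design is whether oocyte origin matters at a given stage. In 8-16-cell embryos, 0 of the 7 genes were called between prepubertal and adult origin by limma, and 0 had an unadjusted p under 0.05. Over all probe sets 0.0208% were called, and 9.02% had an unadjusted p under 0.05. The log2 differences ran between -2.25 (SE 1.36) for CDK1 and 0.79 (SE 0.71) for AURKA, and prepubertal and adult arrays overlapped for every member. The CDK1 value turned to 0.11 without the array that stood apart. When arrays were scaled to their hybridization controls instead, the AURKA value was -0.81, so no direction is given for it.

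In blastocysts, 0 of the 7 genes were called by limma between origins, as were 0.0% of all probe sets, and 1 had an unadjusted p under 0.05, against 3.68% of all probe sets. That gene was AURKA, with the signals given above: all 3 prepubertal pools exceeded all 3 adult pools, as did 6.04% of all probe sets. Its log2 difference was 2.68 (SE 0.71, 95% interval 1.27 to 4.08), or 6.39-fold, with an unadjusted limma p of 0.00022 and an adjusted p of 0.797. The second AURKA probe set gave -3.09 (SE 1.08, unadjusted p 0.00473, adjusted p 1.0), the opposite direction, and it rested in part on the pool read at 8.89. The mean of both probe sets gave -0.21. For CCNB1 and MAD2L1 the differences were 0.14 (SE 1.02) and 0.06 (SE 0.91).

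The difference of the origin effect between stages was called for 0 of the 7 genes and for 0.0% of all probe sets, and 0 of the 7 had an unadjusted limma p under 0.05, against 5.44% of all probe sets. AURKA had the value 1.88 (SE 1.01, unadjusted p 0.0627, adjusted p 0.924), and its second probe set -3.95 (SE 1.53, unadjusted p 0.0107, adjusted p 0.873). A difference of this kind was not detected, which does not show that there is none.

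Because every array's signals carry its own scale, the brighter AURKA probe set was also read against other members on the same array, as log2 AURKA minus the mean log2 of BUB3, CCNB1, CCNA2 and MAD2L1, a measure chosen after its values were seen and given without a test. It was 2.11, 0.44 and 2.10 in prepubertal blastocysts and -0.03, -1.76 and -0.07 in adult blastocysts, against 4.09, 3.78 and 2.98 in prepubertal and 3.02, 2.59 and 3.45 in adult 8-16-cell embryos. Every blastocyst pool lay below every 8-16-cell pool for this probe set, and the array that stood apart, at 2.98, lay within the range of the adult 8-16-cell pools. The second AURKA probe set, read the same way, gave 0.53, -7.48 and -2.86 in prepubertal blastocysts and -0.40, 0.83 and 0.54 in adult blastocysts, against 1.02, 1.56 and 1.45 in prepubertal and 0.85, 0.41 and 0.81 in adult 8-16-cell embryos. There the adult stages overlapped, so a fall of AURKA beyond that of the other 4 genes is seen in adult embryos with the brighter probe set only.

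The same comparison was made for other genes of cell division, in lists also chosen with earlier results of these data known. Of 122 genes in 7 lists, 80 were measured under their symbol, and for both origins averaged 8 were lower and 2 higher in blastocysts while 70 did not pass. The median log2 difference of the 80 was -0.29, against -0.17 over all probe sets and -0.04 over all named genes. Of all probe sets, 2.51% were called lower and 3.9% higher. The median of the 80 was -0.40 within prepubertal embryos (-0.37 over all probe sets, -0.16 over all named genes). Within adult embryos it was -0.62 (0.08 and 0.13). Within prepubertal embryos 3 were lower and 1 higher, where 1.43% of all probe sets were called higher. Within adult embryos 3 were lower and 0 higher, where 1.26% of all probe sets were called higher. Without the array that stood apart, 12 were lower and 2 higher for both origins averaged, where 2.86% of all probe sets were called lower and 4.1% higher. With arrays scaled to hybridization controls, 4 were lower and 2 higher (1.39% and 4.94% of all probe sets). With signals raised to the highest background, probe sets at that floor on every array drop out. There 51 genes of the lists and 6396 probe sets remained. The shares above do not apply to that setting, so no count of list genes is given for it. TACC3 and CKS1B were called lower in all 25 settings of the averaged comparison.

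The Aurora partners had 2 of 13 genes lower and 0 higher, with a median of -0.91. TACC3, which Aurora A places on spindle microtubules, averaged 12.13 ± 1.01 and 12.54 ± 0.91 on the log2 scale in prepubertal and adult blastocysts, against 16.68 ± 0.52 and 15.61 ± 0.54 in prepubertal and adult 8-16-cell embryos (SD, n = 3 each). Its averaged difference was -3.81 (SE 0.57, limma adjusted p 1.18e-07), or 13.99-fold lower in blastocysts, and it was called lower within each origin as well, in adult embryos not without any 1 of 4 arrays (adjusted p 0.0674 to 0.147). CDCA8, a subunit of the chromosomal passenger complex around Aurora B, was 6.44-fold lower (-2.69, SE 0.63, adjusted p 0.0013). The CDCA8 call ended without a trend in eBayes (adjusted p 0.0538), with scaling to hybridization controls (0.0610) and with the floor of the other 11 arrays (0.0912).

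Among 19 other cyclins, cyclin-dependent kinases and their regulators, 3 were lower and 0 higher, with a median of -1.19. CKS1B, a small subunit that binds cyclin-dependent kinases, was 13.9-fold lower in blastocysts (-3.80, SE 0.76, limma adjusted p 0.000124). CDKN2C, an inhibitor of CDK4 and CDK6, was at background on all 6 blastocyst arrays and at least 5.31-fold lower there (adjusted p 0.00192), while 5 of the 6 arrays of 8-16-cell embryos were above background. Its call ended with signals raised to the highest background (-0.20, adjusted p 0.432) and with the floor of the other 11 arrays (-1.52, adjusted p 0.121). MNAT1, which assembles the CDK-activating kinase, differed by -3.38 (SE 0.99, adjusted p 0.0181), a call lost when prepubertal 8-16-cell replicate 2, adult blastocyst replicate 1 or prepubertal blastocyst replicate 2 was left out (adjusted p 0.0811 to 0.152) or when arrays were scaled to hybridization controls (0.1003). These regulators do not act in 1 direction on the cycle, and the list's count says nothing of its activity.

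Of 8 other mitotic kinases, 1 was lower: MOS, the oocyte kinase that holds the egg in meiotic arrest, was at background on all 6 blastocyst arrays and at least 2.79-fold lower there (limma adjusted p 0.0175). The MOS call ended without replicate 2 of either 8-16-cell group or replicate 1 or 2 of the adult blastocysts (adjusted p 0.0515 to 0.0971), and under both floors (-0.38, adjusted p 0.432, and -1.37, adjusted p 0.4004). AURKB differed by -1.85 (SE 1.03, adjusted p 0.37), PLK1 by -1.80 (adjusted p 0.369), BUB1 by 0.46 (SE 1.05) and BUB1B by 2.15 (SE 1.06, adjusted p 0.276), and none of these passed.

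The 13 other checkpoint and kinetochore genes split, with 1 lower and 1 higher. ZWINT, which anchors checkpoint proteins at the kinetochore, was 8.87-fold lower in blastocysts (-3.15, SE 0.86, limma adjusted p 0.00833), a call that ended with scaling to hybridization controls (0.0989). SPC24, a subunit of the kinetochore's NDC80 complex, was higher: it averaged 11.19 ± 2.27 and 10.54 ± 1.53 in prepubertal and adult blastocysts, against 5.89 ± 0.48 and 5.76 ± 2.33 in prepubertal and adult 8-16-cell embryos (log2 scale, SD, n = 3 each), where 1 of 6 arrays was above background. Its averaged difference was called in the fit (adjusted p 0.000233), but the size is not measured, since the lower signals are mostly background: within prepubertal embryos, where all 3 of the 8-16-cell arrays were at background, SPC24 was at least 3.58-fold higher in blastocysts. The averaged call ended with signals raised to the highest background (0.83, adjusted p 0.244) and with the floor of the other 11 arrays (2.12, adjusted p 0.181).

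The anaphase-promoting complex, the ligase that CDC20 activates, had 14 measured genes, with 1 higher and 0 lower and a median of 0.40. The gene called was CDC16, a subunit of the complex, at background on all 6 arrays of 8-16-cell embryos and at least 2.89-fold higher in blastocysts (limma adjusted p 0.00152). That call, too, ended under both floors (0.29, adjusted p 0.432, and 1.38, adjusted p 0.333). Of 7 genes of sister chromatid cohesion and separation, 1 was lower, SGO1, which protects cohesion at centromeres (-3.11, SE 1.03, adjusted p 0.0458), and this call was lost without any 1 of 10 arrays, with adjusted p up to 0.173. The SGO1 call also ended under both floors (-0.13, adjusted p 0.432, and -0.83, adjusted p 0.289). It ended too with 64 instead of 16 added to the signals (0.0592) and with scaling to hybridization controls (0.134). SGO1 was called in 11 of the 25 settings. Of 6 proliferation markers, 0 passed by limma, and PCNA, the sliding clamp of DNA replication, differed by -1.76 (SE 0.70, adjusted p 0.128).

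**Figure D4:**
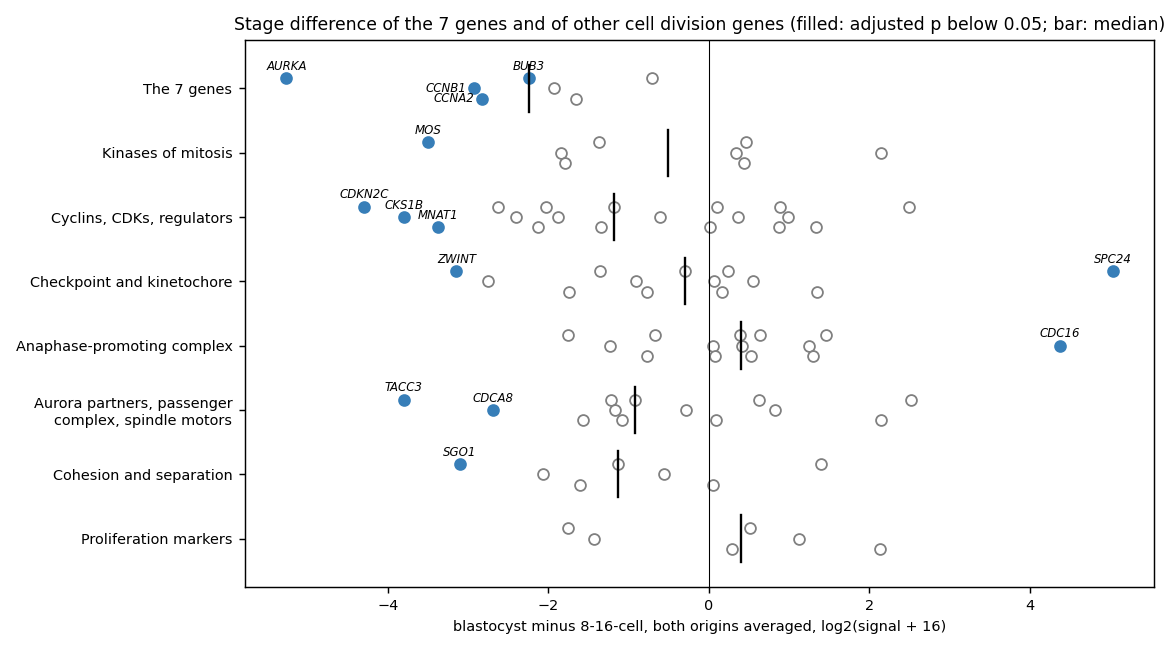
Log2 difference of blastocyst minus 8-16-cell embryos, both origins averaged, for the 7 genes and for the 80 genes of 7 cell division lists; each point is 1 gene, filled points pass an adjusted p of 0.05 and are named, and the bar is the list's median. The 7 genes have a median of -2.25, the lists lie between -1.19 and 0.41, and SPC24 and CDC16 are the 2 filled points on the side of higher signal in blastocysts.

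Between origins, 0 of the 80 genes were called by limma at either stage. Of the 80, 6 in 8-16-cell embryos and 5 in blastocysts had an unadjusted p under 0.05, against 9.02% and 3.68% of all probe sets. The smallest in 8-16-cell embryos was that of SMC3, a cohesin subunit, which was at background on all 3 prepubertal arrays, at least 4.39-fold below the adult ones, without passing (unadjusted p 0.0066, adjusted p 0.407), and in blastocysts that of PMF1, a kinetochore protein, at background on all 3 adult arrays, with prepubertal signals at least 1.55-fold higher, without passing (unadjusted p 0.0125, adjusted p 1.0).

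Likeness of pattern was described by Pearson's r of log2 signals over the 12 arrays, among 3147 genes, without a test, since all 12 points share the stage split and the scaling of each array. The genes nearest to AURKA were LOC513055 (r = 0.965), KPNA7 (0.957), a nuclear import receptor of the oocyte, and YPEL5 (0.954). CCNB1 was nearest to PELI1 (0.974) and ALG13 (0.968), and CCNA2 to EIF4A2 (0.934) and SF1 (0.930). BUB3 and MAD2L1 had r = 0.944 with each other, which ranked second for BUB3, after PRNP (0.946), and first for MAD2L1. CDK1 had r between -0.13 and 0.24 with the other members over 12 arrays, and between 0.49 and 0.86 over the 11 arrays without the one that stood apart.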

How the data were processed

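RNA of 12 embryo pools was measured on Affymetrix bovine arrays. The deposited signal intensity of each probe set was made by the authors with MAS5, per the submitters' processing notes. The sources used here give neither its version nor its settings. Trimmed by 2% at each end, every array's mean was 500, which fits scaling to one target. MAS5 reads each array alone, so a library with few bright probe sets has its signals scaled up.

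Gene names came from the platform annotation, updated through RefSeq gene identifiers: 13292 probe sets named 1 gene, 86 several and 10638 none. After leaving out 112 control probe sets, log2(signal + 16) of 24016 probe sets was fitted with a mean per group in limma 3.58.1 (R 4.3.3; eBayes with trend, 8 residual and 195.66 prior degrees of freedom). Tests were two-sided, adjusted by Benjamini and Hochberg over all 24016 and called at an adjusted p of 0.05. The number of arrays, 3 per group, limits the precision.

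A probe set counts as above background where it exceeds the brightest of 27 Bacillus subtilis control probe sets of its array. If these were added to the samples, this background is too high. A fold written as "at least" sets the brighter group against the background of a group in which no array exceeded it.

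The members and lists were chosen with earlier results of these data known. All members were named, with list genes past the threshold or, between origins, with the smallest p, and the genes nearest to each member. AURKB, PLK1, BUB1, BUB1B and PCNA were added after their values were seen. Replicate numbers were not taken as pairs: over 18 pairs of arrays with the same number, deviations from the group means correlated between -0.025 and 0.049.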

Additional observations from a re-analysis of the deposited data

How the results depend on the processing

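Over 25 other settings, no member called in a comparison changed direction there. AURKA was called between stages in every setting, with log2 differences of -5.60 to -3.07 in prepubertal and -6.65 to -4.57 in adult embryos. In prepubertal embryos, 1 gene was called, against 2 with signals raised to the highest background and 3 with a floor at the highest background of the other 11 arrays, without the array that stood apart (a setting added after seeing the data). In adult embryos, 2 were called, against 1 without a trend in eBayes, 1 with the mean over a gene's probe sets, 1 with arrays scaled to hybridization controls (also added after seeing the data) and 4 with that lower floor. For both origins averaged, 4 were called, against 1 with scaling to hybridization controls, where CCNB1 gave -2.43 with an adjusted p of 0.0776. CDK1 and MAD2L1 gained averaged calls with signals raised to the highest background (limma adjusted p 0.02 and 0.0255) and with that lower floor (0.0034 and 0.0282). CCNA2 lost its averaged call with the higher of these floors (0.0668). Leaving out 1 array at a time gave 1 to 1, 1 to 3 and 3 to 4 genes in prepubertal, adult and averaged embryos, and 0 to 0 between origins and for the difference between stages. With replicate number as a block, 1, 2 and 4 genes were called between stages and 0 between origins, as without the block, and the numbers did not pair the arrays. Over all probe sets, counts of calls ranged over 272 to 716 (563 as reported) in prepubertal, 241 to 889 (512) in adult and 603 to 1740 (1538) in averaged embryos, over 0 to 28 (5) between origins in 8-16-cell embryos and over 0 to 2 (0) in blastocysts. Scaling to hybridization controls moved the median difference of all probe sets in prepubertal embryos to 0.58, against -0.37. A fit on only the arrays of the groups compared gives no value for the averaged comparison or the difference between stages, which use all groups. Signals at background limit CDC20 on most arrays and CDK1 on the array that stood apart.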

Other observations

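Without the prepubertal 8-16-cell array that stood apart, 5 further genes of the cell division lists were called lower in blastocysts for both origins averaged with limma, and SGO1 no longer was (adjusted p 0.0502). In that setting 2.86% of all probe sets were called lower, against 2.51% with all arrays. CKS2, the partner of CKS1B in binding cyclin-dependent kinases, differed by -2.41 on the log2 scale (SE 0.58, adjusted p 0.00217). CDK7, the catalytic subunit of the CDK-activating kinase that MNAT1 assembles, differed by -3.42 (SE 1.04, adjusted p 0.024). CCNE1, the cyclin of the G1 to S transition, differed by -3.16 (SE 1.01, adjusted p 0.0347), SPDL1, which brings dynein to kinetochores, by -3.26 (SE 1.02, adjusted p 0.0307), and PCNA by -1.89 (SE 0.61, adjusted p 0.0364). These genes are named because they passed in this setting.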
